A study of Mus musculus with 5 samples.

Results

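The cell cycle and DNA replication module comprised 46 genes, of which 22 act in replication and 24 in mitosis. Each gene was read from 1 microarray probe set, the brightest by mean log2 intensity over the 5 arrays among the probe sets annotated to that gene alone. Such a probe set was listed here for 45 of the 46 genes, Ccnb1 being the exception, out of 18193 genes in the whole series. Of the 45 genes, 42 reached an intensity of 50 in at least 2 arrays and were tested, while Cdc6, Pola1 and Bub1 lay under 50 on all 5 arrays.

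Cultured plasma cells (PCs) had been kept for 3 days in co-culture with the stromal line ST2 and the cytokine APRIL at physiological oxygen and were then sorted by flow cytometry, whereas ex vivo PCs went straight from magnetic isolation to RNA. All PCs were taken from bone marrow of C57BL/6J mice more than a month after repeated immunisation with NP-CGG, by magnetic depletion of cells carrying B220 or CD49b and enrichment of cells carrying CD138. There were 3 cultured arrays, 2 from experiment 2 and 1 from experiment 1, and 2 ex vivo arrays, 1 from each experiment. ST2 is a fibroblast-like line from BALB/c bone marrow. Stromal contact, APRIL, time in culture and the additional sort changed together and cannot be told apart. The labels do not say whether the 2 cultured arrays of experiment 2 came from separate cultures, so the spread between these 2 arrays may be technical. P-values of culture alone rest on the spread within both groups, across experiments (3 residual degrees of freedom). With the experiment as a block, they rest on that pair and on any difference in the change between the experiments (2 residual degrees of freedom). The test of whether the change differs between the experiments has that pair as its only residual. In every fit, the spread of a gene was also drawn towards that of all tested probe sets.

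A dividing cell first licenses its origins by loading the MCM helicase, then fires them in S phase with the help of Cdc45 and the GINS complex, and copies DNA with polymerases that are held on the template by the PCNA clamp. Cyclin A and cyclin B with CDK1 then drive entry into mitosis, kinesins and their partners build the spindle, the kinetochore checkpoint waits for attached chromosomes, and CDC20 with the anaphase-promoting complex ends mitosis. Terminally differentiated PCs of the bone marrow are known as largely resting cells. In a bulk RNA sample, fewer cells of a type and less RNA per cell cannot be told apart.

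Genes of the early and of the late cell cycle are known for different promoter elements, G1/S genes for E2F sites and G2/M genes for CCAAT boxes with a cell cycle homology region (CHR). RefSeq promoters were matched for 36 of the 46 genes (GRCm38.p6). The 18 matched mitosis genes had 1 window each and the 18 matched replication genes 22 windows, since Lig1 had 3 and Mcm7 and Uhrf1 had 2, and the 250 bases before each start were searched on both strands for E2F (TTTCCCGC, TTTCGCGC, TTTGCCGC or TTTGGCGC), CHR (TTTGAA or TTCGAA) and CCAAT. An E2F match was present in 6 of 22 replication promoters (27.3%), in 1 of 18 mitosis promoters (5.56%) and in 1.86% of all 32851 promoters. A CHR match was present in 3 of 22 replication promoters (13.6%), 8 of 18 mitosis promoters (44.4%) and 17.1% of all promoters. CCAAT was found in 14 of 22 replication promoters (63.6%), 16 of 18 mitosis promoters (88.9%) and 33.8% of all promoters. These shares describe letters in a window, with no test. The promoters shown are those of Mcm5, which passed a test of culture, and of Mki67, Top2a and Ube2c. The last are among the 7 mitosis genes whose cultured arrays all lay below the ex vivo arrays. Of the rest of these, Cdc20 had CHR and CCAAT matches, Aurka had CCAAT but no CHR match, Birc5 had neither, and Stmn1 had no matched promoter. Matches are in capitals, and matches that overlap form 1 run.
Mcm5: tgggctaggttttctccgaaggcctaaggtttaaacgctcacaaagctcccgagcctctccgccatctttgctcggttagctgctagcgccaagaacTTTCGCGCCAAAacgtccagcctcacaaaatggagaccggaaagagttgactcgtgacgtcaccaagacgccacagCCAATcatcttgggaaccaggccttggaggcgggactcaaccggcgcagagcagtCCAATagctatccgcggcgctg
Mki67: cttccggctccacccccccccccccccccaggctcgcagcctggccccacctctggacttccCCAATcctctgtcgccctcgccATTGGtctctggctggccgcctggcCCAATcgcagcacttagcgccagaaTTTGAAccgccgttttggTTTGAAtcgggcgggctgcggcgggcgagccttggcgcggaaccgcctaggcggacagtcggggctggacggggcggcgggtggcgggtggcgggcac
Top2a: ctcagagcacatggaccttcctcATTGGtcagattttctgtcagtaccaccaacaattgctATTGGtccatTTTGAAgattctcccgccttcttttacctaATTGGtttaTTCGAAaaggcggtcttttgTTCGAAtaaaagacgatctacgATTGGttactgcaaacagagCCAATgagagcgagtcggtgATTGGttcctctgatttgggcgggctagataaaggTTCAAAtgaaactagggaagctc
Ube2c: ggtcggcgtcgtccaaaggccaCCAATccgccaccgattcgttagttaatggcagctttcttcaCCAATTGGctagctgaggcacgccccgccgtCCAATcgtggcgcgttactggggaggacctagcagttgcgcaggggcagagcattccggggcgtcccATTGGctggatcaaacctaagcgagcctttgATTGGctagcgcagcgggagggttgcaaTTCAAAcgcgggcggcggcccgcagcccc
The Mcm5 window (chr8:75109259-75109508, plus strand) held 2 overlapping E2F matches and 2 CCAAT matches and no CHR match. The Mki67 window (chr7:135716380-135716629, minus strand) held 2 CHR and 3 CCAAT matches, and the Top2a window (chr11:99024190-99024439, minus strand) held 4 CHR and 6 CCAAT matches. In the Ube2c window (chr2:164769679-164769928, plus strand) there were 1 CHR match and 6 CCAAT matches, a pair of which overlap. None of the last 3 held an E2F match.

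The arrays had similar median intensities, between 89.97 and 94.19 in cultured PCs and between 87.05 and 92.06 in ex vivo PCs. The 8 PC markers summed to intensities of 55730 to 57907 in cultured and 58660 to 60419 in ex vivo PCs, with none under 50 in any group. Markers of stromal cells (12 genes) summed to 15423 and 15839 in the cultured arrays of experiment 2 and 5351 in that of experiment 1, against 564 and 704 in ex vivo PCs, and 10 of the 11 tested rose in limma with the experiment as a block, and 2 (Cav1 and Pcolce) without it. All 9 markers of myeloid progenitors and neutrophils were lower in the cultured mean, with sums of 492 and 501 (experiment 2) and 481 (experiment 1) in cultured PCs, against 601 (experiment 2) and 937 (experiment 1) in ex vivo PCs, although Elane and Ctsg were under 50 throughout. Markers of B cell precursors (6 genes) summed to 5308, 4977 and 6133 in cultured PCs, against 5768 and 7016 in ex vivo PCs, in the same order of experiments, but Igll1 alone made up 4824, 4476 and 5188 of these in cultured PCs, against 5188 and 5997 in ex vivo PCs. The other 5 summed to 483, 501 and 946 in cultured PCs, against 582 and 1018 in ex vivo PCs. Erythroid markers (8 genes) summed to 513 to 578 in cultured and 471 to 606 in ex vivo PCs, with Hba-a1, Alas2 and Car1 under 50 on all arrays, and T cell markers (4 genes) summed to 391 to 846 in cultured and 327 to 449 in ex vivo PCs. The brightest T cell marker was Cd4, with log2 intensities of 9.34, 8.76 and 7.85 in cultured PCs, against 7.94 and 6.94 in ex vivo PCs. Cd3d and Cd3e were lower in culture in all 3 pairs, Cd3e under 50 on all arrays, and Cd8a went both ways. The part of these other cells in the results below was not tested.

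Most of the module was lower after culture, by a small amount. The cultured mean lay below the ex vivo mean for 41 of 45 genes (91.1%), against 64.2% of all genes, and the median difference was -0.28 on the log2 scale, against -0.06 for all genes. Replication genes (19 of 22 lower, median -0.27) and mitosis genes (22 of 23 lower, median -0.28) had medians close to each other over all arrays. The mitosis median was -0.16 without the ex vivo array of experiment 1 and -0.45 without that of experiment 2, and without the first cultured array of experiment 2 the medians were -0.31 for replication and -0.42 for mitosis genes. Every cultured array lay below every ex vivo array for 15 of 45 genes (8 replication, 7 mitosis), where 14.6% of all genes did so, and every cultured array lay above for 0 of 45, where 6.66% of all genes did so. In the same arrays, summed stromal markers were higher and summed myeloid markers lower in cultured PCs.

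With limma across 30477 probe sets and no term for the experiment, 0 of 42 genes were called at an adjusted p under 0.05 in either direction, the smallest adjusted p being 0.373 for Top2a, while 6 were lower and 0 higher at an unadjusted p under 0.05, where 2.61% of all tested probe sets were lower and 3.98% higher. This fit called 0.0164% of all tested probe sets higher and 0.0295% lower. With the experiment as a block, limma called 0 of 42 genes higher and 1 lower, Mcm5, where 1.24% of all probe sets were called higher and 0.561% lower. At an unadjusted p under 0.05, that fit gave 17 genes lower and 1 higher, with 7.37% of all probe sets lower and 11.1% higher. For a single gene, the smallest two-sided exact permutation p that 3 arrays against 2 allow is 0.1.

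**Figure D1:**
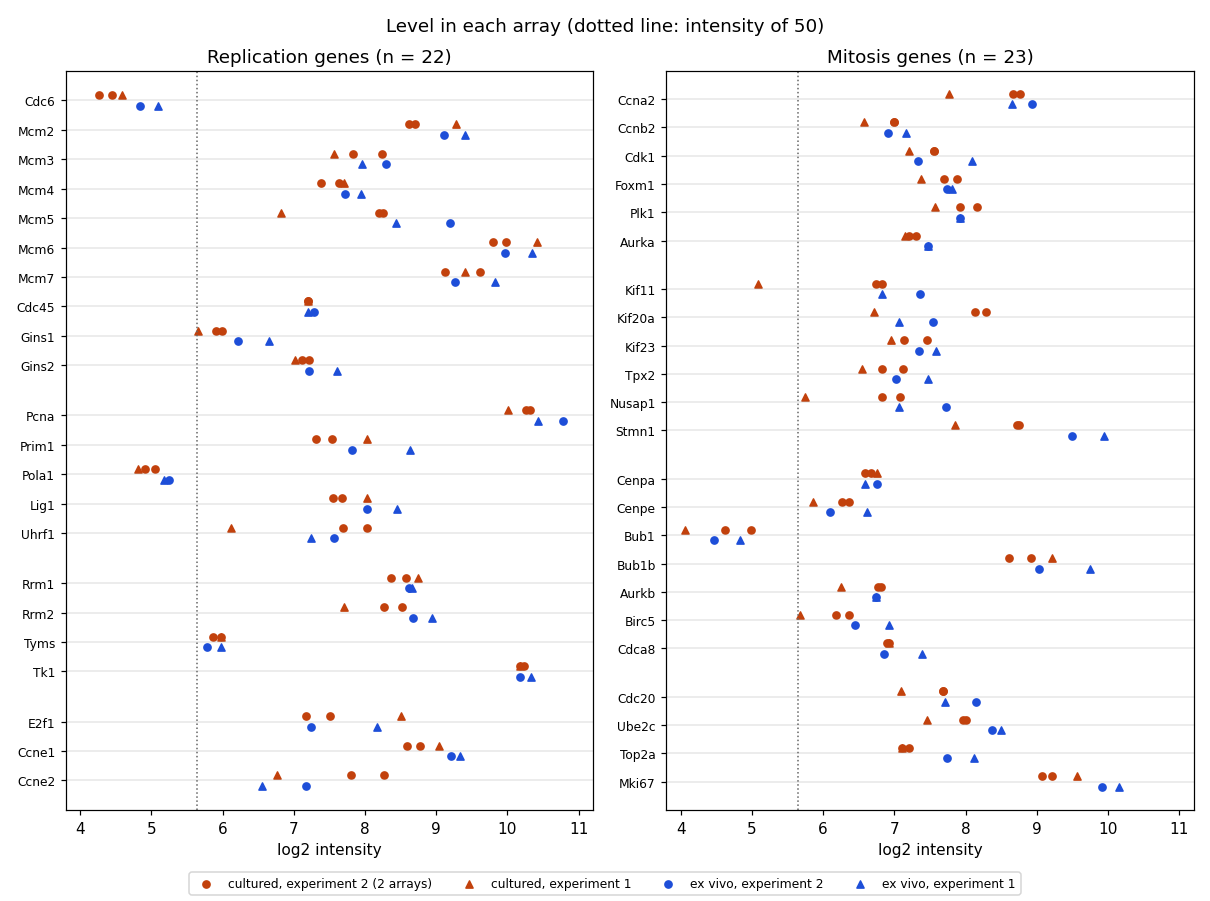
Log2 intensity (x axis) of each measured gene in each array, with cultured PCs in orange above ex vivo PCs in blue on each row, circles for experiment 2 and triangles for experiment 1, and a dotted line at an intensity of 50. Levels are to be read along a row, since probe sets differ in brightness; the cultured points of Mki67, Top2a, Ube2c and Stmn1 lie wholly left of the ex vivo points, and Cdc6, Pola1 and Bub1 lie left of the dotted line.

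The licensing and helicase genes (Cdc6, Mcm2 to Mcm7, Cdc45, Gins1 and Gins2) were lower in the cultured mean for 10 of 10 genes, with a median of -0.27. Mcm5, a subunit of the replicative helicase, had log2 intensities of 8.25 and 8.19 (experiment 2) and 6.83 (experiment 1) in cultured PCs, against 9.20 (experiment 2) and 8.44 (experiment 1) in ex vivo PCs. All 3 cultured values were under both ex vivo values, and the ex vivo PCs of experiment 1 were close to the cultured PCs of experiment 2. Mcm5 fell by 1.25 ± 0.17 (SE) with the experiment as a block (limma, adjusted p = 0.0348), and its difference without the block was -1.06 ± 0.52 (limma, adjusted p = 0.831). A dimmer Mcm5 probe set differed by -0.92 in the blocked fit (limma, adjusted p = 0.103), so the call was made by the brighter of the 2 tested probe sets. The blocked call was lost when either cultured array of experiment 2 was left out (limma, adjusted p = 0.0564 and 0.105) or the 2 were averaged (0.0787), with intensities under 50 set to 50 (0.0503), and with the mean of the Mcm5 probe sets (0.0608).

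Gins1, a subunit of the GINS complex, had log2 intensities of 5.99 and 5.91 (experiment 2) and 5.65 (experiment 1) in cultured PCs, against 6.22 and 6.66 in ex vivo PCs. The groups did not overlap, but the lowest cultured value was at the level of an intensity of 50, and the difference of -0.59 was not called (limma, adjusted p = 0.191 with the block). Mcm2, another helicase subunit, had 8.61 and 8.71 (experiment 2) and 9.28 (experiment 1) in cultured PCs, against 9.11 and 9.41 in ex vivo PCs. Here the groups overlapped, although each cultured array was below the ex vivo array of its own experiment. Mcm6 gave 9.98, 9.80 and 10.41 in cultured PCs, against 9.97 and 10.34 in ex vivo PCs, a difference of -0.09 that was within the spread of the arrays. A dimmer Mcm6 probe set had 8.32, 8.32 and 8.98 in cultured PCs, against 8.82 and 9.13 in ex vivo PCs. It was lower in every pair, with a difference of -0.435, and was not called (limma, adjusted p = 0.235 with the block). Cdc45, which activates the helicase, was at 7.20 in all 3 cultured arrays, against 7.29 and 7.20 in ex vivo PCs, the smallest difference of the set by brightest probe sets (-0.04). Its dimmer probe set had 7.24, 7.15 and 6.78 in cultured PCs, against 7.30 and 7.16 in ex vivo PCs, lower in every pair with a difference of -0.17. Cdc6, the loading factor of the helicase, was lower in all 3 pairs but had no value above an intensity of 34.1. The other helicase genes Mcm3, Mcm4, Mcm7 and Gins2 differed by -0.29 (Gins2) to -0.17 (Mcm7), and among these only the groups of Mcm4 did not overlap.

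The genes of DNA synthesis were lower in the cultured mean for 5 of 5 genes, with a median of -0.41, including Pola1, a polymerase subunit with a difference of -0.29 at intensities under 50. Pcna, the sliding clamp, had 10.26 and 10.32 (experiment 2) and 10.01 (experiment 1) in cultured PCs, against 10.78 and 10.42 in ex vivo PCs. The groups did not overlap, the changes within the pairs were -0.52, -0.47 and -0.42, and Pcna was not called (limma, adjusted p = 0.106 with the block). Prim1, the primase subunit, had 7.54, 7.31 and 8.02 in cultured PCs, against 7.82 and 8.63 in ex vivo PCs. Lig1, the ligase that joins Okazaki fragments, had 7.55, 7.68 and 8.03 in cultured PCs, against 8.03 and 8.44 in ex vivo PCs. Both were lower in every pair (by -0.60 to -0.29 for Prim1 and -0.48 to -0.35 for Lig1) with groups that overlapped between experiments. Uhrf1, which carries DNA methylation through replication, had 8.03 and 7.69 (experiment 2) and 6.12 (experiment 1) in cultured PCs, against 7.57 and 7.25 in ex vivo PCs. It was higher in culture in both pairs of experiment 2, by 0.46 and 0.12, and changed by -1.13 in experiment 1. A dimmer Uhrf1 probe set had 6.68, 6.67 and 6.38 in cultured PCs, against 6.69 and 6.83 in ex vivo PCs.

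Among the nucleotide genes, only Rrm2 of the 4 differed by more than 0.1 in the group means. Rrm2, the S phase subunit of ribonucleotide reductase, had 8.52 and 8.27 (experiment 2) and 7.71 (experiment 1) in cultured PCs, against 8.67 and 8.94 in ex vivo PCs. The groups did not overlap, and the difference with the block was -0.69 (limma, adjusted p = 0.211). A dimmer probe set of Rrm2 fell by 0.84 in the same fit (limma, adjusted p = 0.0458). With that of Mcm5, 2 of the 78 tested probe sets of the module were called lower and 0 higher, where 0.561% of all tested probe sets were called lower and 1.24% higher. Rrm1, the partner subunit that is made throughout the cycle, had 8.57, 8.37 and 8.74 in cultured PCs, against 8.62 and 8.66 in ex vivo PCs. Tk1, a thymidine kinase, had 10.18, 10.23 and 10.18 in cultured PCs, against 10.18 and 10.33 in ex vivo PCs. Tyms, thymidylate synthase, lay between 5.87 and 5.98 in cultured PCs and at 5.78 and 5.98 in ex vivo PCs. None of these 3 moved beyond the spread of its arrays.

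The 3 genes of G1/S control went different ways. Ccne2, a cyclin of S phase entry, had 8.27 and 7.81 (experiment 2) and 6.77 (experiment 1) in cultured PCs, against 7.17 and 6.56 in ex vivo PCs. It was the only gene of the module that was higher in all 3 pairs, by 1.11, 0.64 and 0.21, where 15.7% of all genes were, and it was not called (limma, adjusted p = 0.233 with the block). Its relative Ccne1 had 8.77, 8.60 and 9.04 in cultured PCs, against 9.21 and 9.33 in ex vivo PCs, with groups that did not overlap and a difference of -0.47. E2f1, the transcription factor of the G1/S switch, had 7.18 and 7.51 (experiment 2) and 8.51 (experiment 1) in cultured PCs, against 7.24 and 8.17 in ex vivo PCs. Both arrays of experiment 1 were above all 3 of experiment 2.

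**Figure D2:**
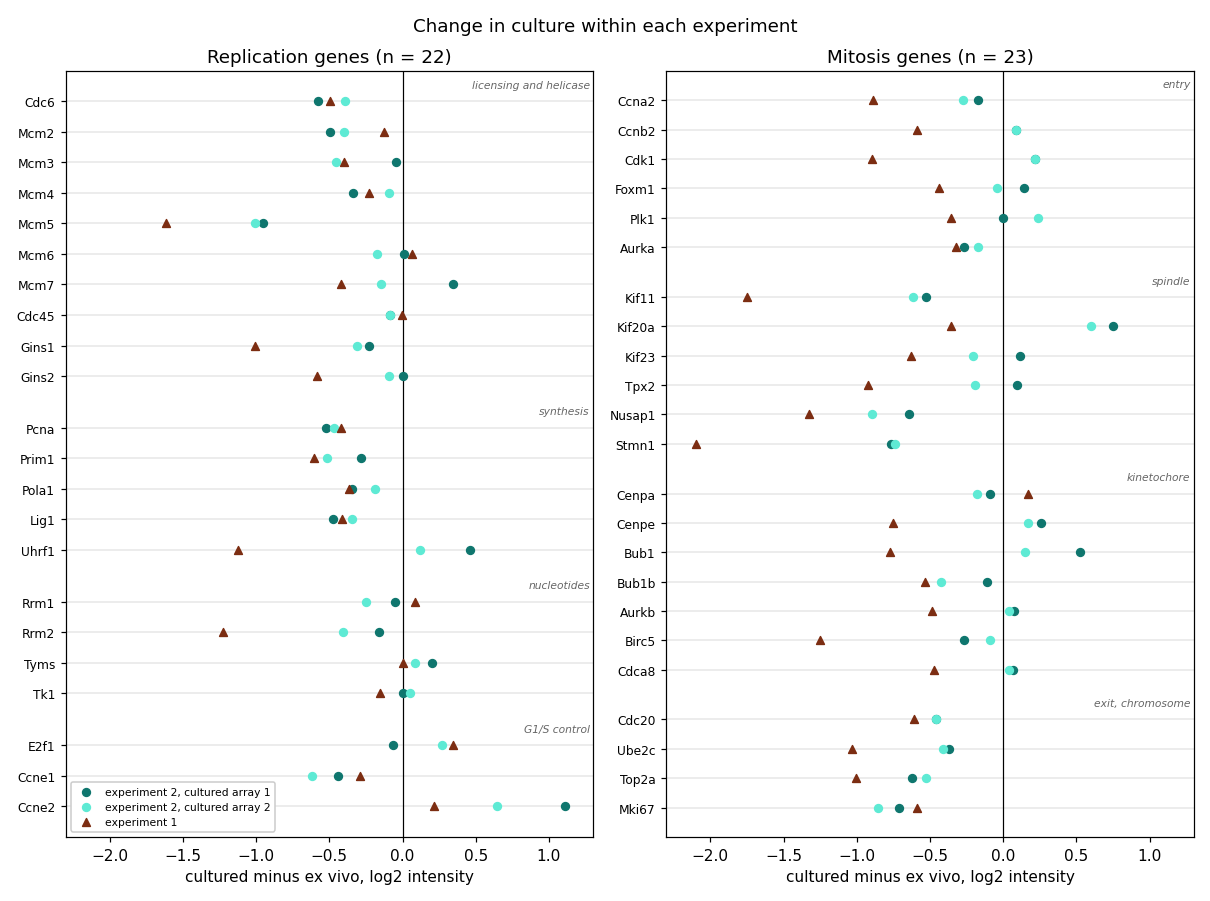
Cultured minus ex vivo log2 intensity (x axis) within each experiment for each measured gene (rows, grouped by role), with dark and light circles for the 2 cultured arrays of experiment 2 against the same ex vivo array and triangles for experiment 1. Triangles of mitosis genes lie left of the circles for 21 of 23 genes, and Ccne2 is the gene with all 3 points right of 0.

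In mitosis, the 6 measured genes of entry were all lower in the cultured mean, with a median of -0.22. Ccna2, the cyclin A gene, had 8.77 and 8.67 (experiment 2) and 7.76 (experiment 1) in cultured PCs, against 8.94 and 8.65 in ex vivo PCs. Cdk1, the kinase of mitotic entry, had 7.56 and 7.56 (experiment 2) and 7.20 (experiment 1) in cultured PCs, against 7.34 and 8.09 in ex vivo PCs. Ccna2 was lower in every pair, whereas Cdk1 changed by 0.22 in both pairs of experiment 2 and by -0.89 in experiment 1. Foxm1, the transcription factor of G2/M genes, had 7.88, 7.70 and 7.37 in cultured PCs, against 7.74 and 7.81 in ex vivo PCs. Plk1, a mitotic kinase, had 7.93, 8.17 and 7.57 in cultured PCs, against 7.93 and 7.93 in ex vivo PCs. Both sets of groups overlapped, with differences of -0.12 and -0.04. Ccnb2, a cyclin B gene, differed by -0.18, also with overlap. Aurka, the spindle pole kinase, was the entry gene with non-overlapping groups, at 7.15 to 7.30 in cultured PCs and 7.47 in both ex vivo arrays.

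The spindle genes had a median of -0.63 and the widest range of the module. Stmn1, which destabilises microtubules and is also made outside mitosis, had 8.73 and 8.75 (experiment 2) and 7.85 (experiment 1) in cultured PCs, against 9.49 and 9.95 in ex vivo PCs. The groups were separate and the difference in means, -1.28 ± 0.34 (SE), was the largest of the 45 genes, yet it was not called with or without the block (limma, adjusted p = 0.103 and 0.525). Kif11, the kinesin that separates spindle poles, had 6.83 and 6.74 (experiment 2) and 5.08 (experiment 1) in cultured PCs, against 7.36 and 6.83 in ex vivo PCs. Its cultured value in experiment 1 was under an intensity of 50, so the change of -1.75 in that experiment rests on a value at the background. Nusap1, a microtubule bundler, had 7.08, 6.83 and 5.75 in cultured PCs, against 7.72 and 7.07 in ex vivo PCs, and was lower in every pair (limma, adjusted p = 0.0575 with the block).

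Kif20a, a kinesin of cytokinesis, was the mitosis gene with a higher cultured mean. Its values were 8.29 and 8.14 (experiment 2) and 6.71 (experiment 1) in cultured PCs, against 7.54 and 7.07 in ex vivo PCs. The 2 cultured arrays of experiment 2 were above every other array, and that of experiment 1 was the lowest of all. Kif23, another cytokinesis kinesin, had 7.46, 7.14 and 6.95 in cultured PCs, against 7.34 and 7.58 in ex vivo PCs, and Tpx2, a spindle assembly factor, differed by -0.41, both with overlapping groups.

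The kinetochore and chromosomal passenger genes had a median of -0.19. Birc5, the survivin gene, had 6.18 and 6.37 (experiment 2) and 5.67 (experiment 1) in cultured PCs, against 6.45 and 6.92 in ex vivo PCs, and was the kinetochore gene whose groups did not overlap. Bub1b, a checkpoint kinase homologue, had 8.92, 8.60 and 9.22 in cultured PCs, against 9.03 and 9.75 in ex vivo PCs, and was lower in every pair. Cenpa, the centromeric histone, had 6.67, 6.58 and 6.76 in cultured PCs, against 6.76 and 6.59 in ex vivo PCs, and did not differ beyond its spread. Cenpe, Bub1, Aurkb and Cdca8 were higher in culture in both pairs of experiment 2 and lower in experiment 1.

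The genes grouped under mitotic exit and the mitotic chromosome were lower throughout. Mki67, which codes for the proliferation marker Ki-67, had 9.21 and 9.07 (experiment 2) and 9.56 (experiment 1) in cultured PCs, against 9.92 and 10.15 in ex vivo PCs. The means were 9.28 ± 0.25 in cultured PCs (SD, n = 3) and 10.03 ± 0.16 in ex vivo PCs (SD, n = 2), and the 2 groups did not overlap. Its difference was -0.70 ± 0.12 (SE) with the block (limma, adjusted p = 0.0564). Mki67 and Cenpa were the 2 mitosis genes with a lower change in experiment 2 (-0.71 and -0.85 for Mki67) than in experiment 1 (-0.59). Top2a, the topoisomerase that untangles chromosomes, had 7.11, 7.21 and 7.11 in cultured PCs, against 7.74 and 8.11 in ex vivo PCs. The cultured arrays were nearly equal, and the difference was -0.76 with the block (limma, adjusted p = 0.0679). Cdc20, the activator of the anaphase-promoting complex, had 7.68, 7.68 and 7.10 in cultured PCs, against 8.15 and 7.71 in ex vivo PCs. Ube2c, its ubiquitin-conjugating enzyme, had linear intensities of 257, 249 and 176 in cultured PCs, against 331 and 361 in ex vivo PCs, a difference of -0.63 on the log2 scale. In all 4 genes of this set, every cultured array was below every ex vivo array, where 14.6% of all genes were, and 0 of 4 were called.

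**Figure D3:**
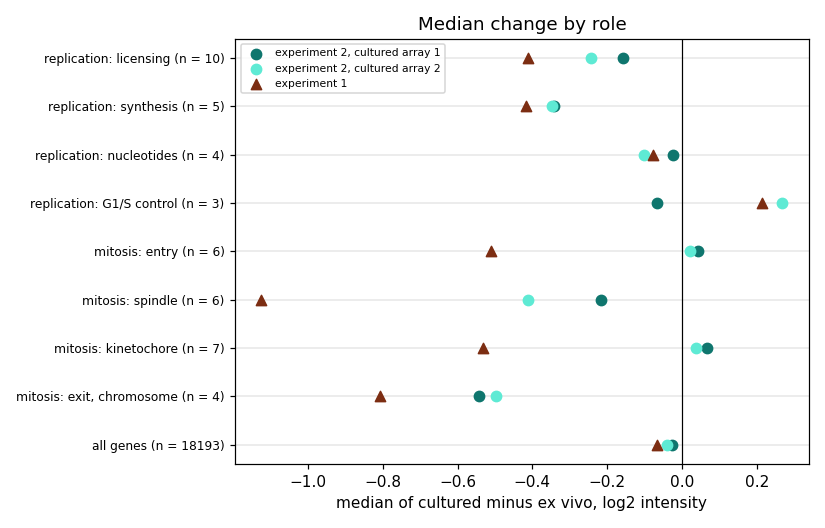
Median change, cultured minus ex vivo in log2 intensity (x axis), of each role group and of all 18193 genes (rows), with circles for the 2 cultured arrays of experiment 2 and triangles for experiment 1. The licensing, synthesis, nucleotide, spindle, and exit and chromosome genes are left of 0 in all 3 pairs, as are all genes by a small amount. The entry and kinetochore genes are left of 0 in experiment 1 and slightly right of it in experiment 2.

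The separation of replication from mitosis appeared between the experiments. In experiment 2, the median change in culture was -0.12 and -0.22 for replication genes and -0.09 and -0.18 for mitosis genes, against -0.03 and -0.04 for all genes. In experiment 1 it was -0.38 for replication genes and -0.63 for mitosis genes, against -0.07 for all genes. The change was lower in experiment 1 than in experiment 2 for 15 of 22 replication genes and 21 of 23 mitosis genes, against 56.1% of all genes. Raising all intensities under 50 to 50 gave medians over all arrays of -0.21 for replication and -0.28 for mitosis genes, against 0.00 for all genes. Summed stromal markers were higher in the cultured arrays of experiment 2 than in that of experiment 1. The ex vivo PCs of experiment 1 had the highest sums of myeloid, erythroid and B cell precursor markers of the 5 arrays.

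Values were lower in culture in all 3 pairs for 24 of 45 genes (13 replication, 11 mitosis), where 30.7% of all genes did so, and higher in all 3 for 1 of 45. In experiment 1, 10 genes were lower by at least 1 on the log2 scale, 4 of replication and 6 of mitosis. Of these, Kif11 was under 50 in the cultured array, and Gins1, Birc5 and Nusap1 were just above it. Both pairs of experiment 2 went the other way from experiment 1 in 10 genes, 8 of which (Uhrf1, Ccnb2, Cdk1, Kif20a, Cenpe, Bub1, Aurkb and Cdca8) were lower in culture in experiment 1 and higher in experiment 2. This holds for the brightest probe sets, and Bub1 was under 50 on all arrays. The dimmer tested probe sets of Cdca8 and Uhrf1 were lower in culture in both pairs of experiment 2, and that of Aurkb was higher in one and lower in the other.

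The test of whether the change in culture differed between the experiments, which has 1 residual degree of freedom, called 0 of 42 genes (limma, smallest adjusted p = 0.654) and 0% of all probe sets. At an unadjusted p under 0.05 it gave 15 genes, 11 of mitosis and 4 of replication, all with a higher change in experiment 2 than in experiment 1, while 2.96% of all probe sets had a higher and 3.63% a lower change there at that threshold. The only residual is the difference between the 2 cultured arrays of experiment 2. Among these 15, Cdk1 and Ccnb2 had equal values in that pair, so their SE of 0.129 came from the spread of all tested probe sets. Stmn1, Cdca8, Aurkb and Ube2c, also among the 15, had SEs of 0.131, 0.131, 0.132 and 0.135. These lie close to that value, so they too rest largely on the spread of all tested probe sets. Equal values in 2 or more arrays were present for 10 genes of the module. The difference between replication and mitosis genes in experiment 1 is therefore a description of 2 arrays.

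**Figure D4:**
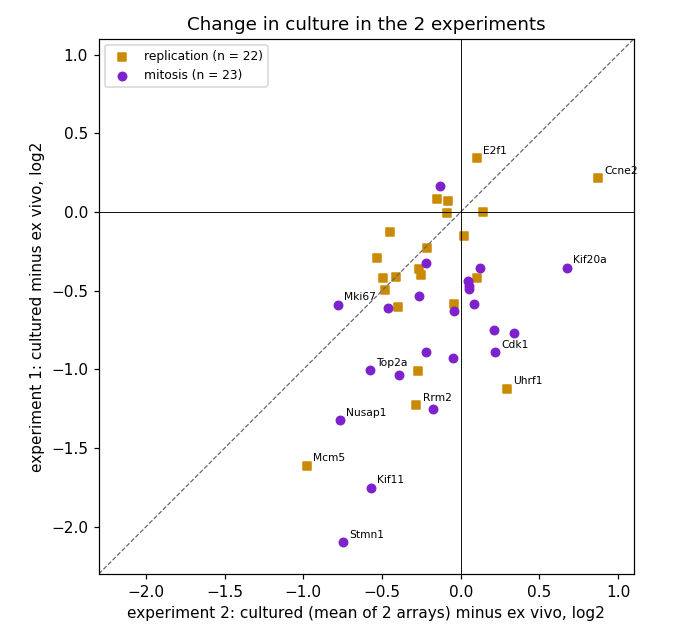
Change in culture in experiment 1 (y axis) against that in experiment 2 (x axis, mean of its 2 cultured arrays), in log2 intensity, with squares for replication genes, circles for mitosis genes and a dashed line where the changes are equal. Most circles lie below the dashed line, Mki67 lies above it, and Kif20a, Uhrf1 and Cdk1 lie right of 0 and below 0.

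Levels also differed between the experiments whatever the culture. With culture as a covariate, limma called 7 of 42 genes higher in experiment 2 and 6 lower, where 13.0% of all probe sets were called higher and 13.8% lower, so the share of the module was near that of the array as a whole. Higher in experiment 2 were 2 replication genes (Mcm5 and Ccne2) and 5 mitosis genes (Ccna2, Kif11, Kif20a, Nusap1 and Cdc20). Lower in experiment 2 were 5 replication genes (Mcm2, Mcm6, Prim1, Lig1 and E2f1) and 1 mitosis gene (Bub1b). All 6 tested spindle genes had a positive difference by their brightest probe sets, with a median of 0.64. For Stmn1 this was 0.31, whereas its dimmer probe set gave -0.64. Without the cultured array of experiment 1, or without either ex vivo array, this fit leaves 1 array in a group, so these settings say nothing about the module.

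E2f1 had the largest fall, at -1.06 ± 0.15 (SE) in experiment 2 relative to experiment 1 (limma, adjusted p = 0.0077). Mcm5 was higher by 1.12 ± 0.17 (limma, adjusted p = 0.00929), although its dimmer probe set gave -0.17. Prim1 differed by -0.69, and its dimmer probe set gave 0.02. Kif11 was higher by 1.20 ± 0.27 (limma, adjusted p = 0.0264), a value that includes the array under 50, and its dimmer probe set gave 0.18. Of the 24 genes with more than 1 tested probe set, 14 had all of them on the same side of 0 in this comparison and 10 did not. For culture, 21 of the 24 had all probe sets on the same side, the exceptions being Rrm1, E2f1 and Top2a. The next brightest Top2a probe set differed by 0.02 between cultured and ex vivo PCs.

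**Figure D5:**
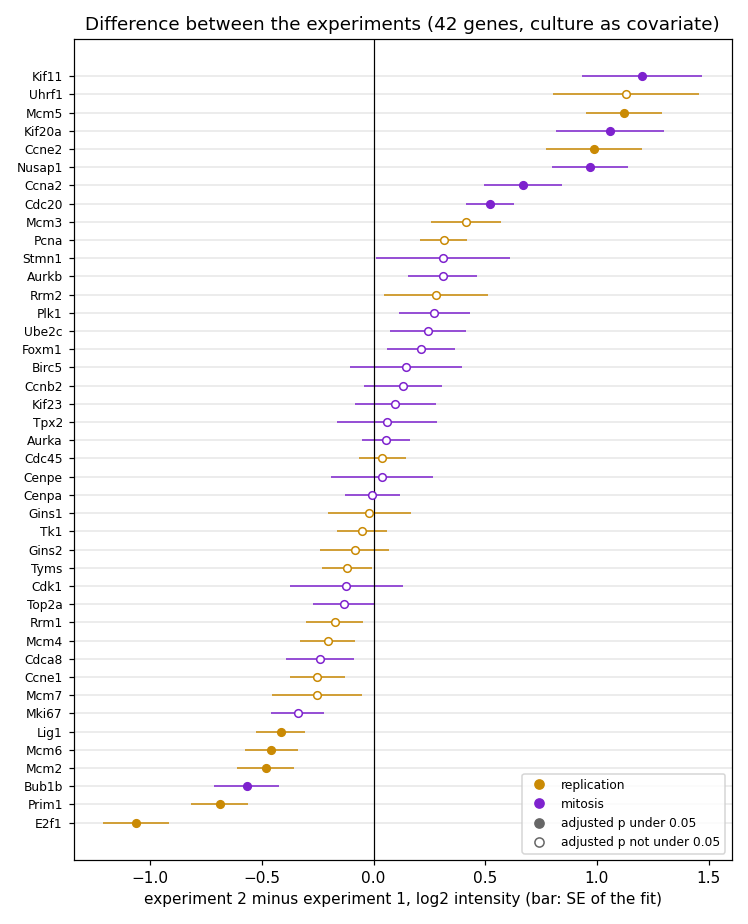
Difference between experiment 2 and experiment 1 in log2 intensity (x axis) for the 42 tested genes (rows, sorted), fitted with culture as a covariate, with bars for the SE of the fit, filled points for an adjusted p under 0.05, orange for replication and purple for mitosis. The 7 filled points on the right are mostly mitosis genes and 5 of the 6 on the left are replication genes.

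Further genes of the same processes moved by similar amounts. Among 33 other replication genes (origin recognition, polymerase, GINS and clamp loader genes among them), 30 were lower in the cultured mean with a median of -0.31. Of all genes, 64.2% were lower, with a median of -0.06. Of the 32 other replication genes tested, 0 were called in culture with or without the block. Among 48 other mitosis genes, 41 were lower with a median of -0.27. The blocked fit called 1 of 43 lower and 0 higher, where 0.561% of all tested probe sets were called lower and 1.24% higher. That gene was Hmgb2, a chromatin protein that cycling cells make in quantity, with 7.05 and 7.05 (experiment 2) and 7.70 (experiment 1) in cultured PCs, against 8.12 and 8.95 in ex vivo PCs. The groups were separate in each experiment and over both, and Hmgb2 fell by 1.15 with the block (limma, adjusted p = 0.0147), a call that was not made without it (-1.27 ± 0.34, limma, adjusted p = 0.525). The 17 measured genes of a list of retinoblastoma, E2F and DREAM genes showed no common direction, with 9 above and 8 below 0 and a median of 0.03. Some of them form complexes that hold cell cycle promoters shut in resting cells, and 0 of 16 tested were called in culture. Dntt, the B cell precursor polymerase, fell by 1.14 in the same blocked fit (limma, adjusted p = 0.0171, and 0.109 without the block), with 6.00, 5.99 and 5.83 in cultured PCs, against 7.03 and 7.12 in ex vivo PCs. Its part in the lower cell cycle values was not tested.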

How the data were processed

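RNA of 5 samples of mouse bone marrow PCs (3 cultured, 2 ex vivo) had been hybridised to Affymetrix mouse arrays. The authors processed raw signals with RMA (affy package) and deposited linear intensities, which were converted to log2 here; no depth applies to arrays, and their number limits the precision. Of 45101 probe sets, 64 controls were left out, 34945 had 1 annotated gene, 932 several and 9160 no gene listed. The 30477 probe sets that reached 50 on 2 or more of the 5 arrays went into limma (version 3.58.1; R version 4.3.3), with p-values adjusted over all of them by Benjamini-Hochberg and a threshold of 0.05. The methods name no covariate, so culture alone was the main model. Further fits took the experiment as a block, tested the experiment itself beside culture, and tested their interaction. Arrays of the same experiment deviated together from their group means (r = 0.749, 0.558 and 0.719 over probe sets), and the experiment numbers in the labels gave the pairing. Deviations within a group sum to 0, so these r values are not separate observations. Fits were tested on simulated data.

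Values in every array are given for Mki67, Top2a, Cdk1, Pcna, Mcm5, Rrm2, E2f1 and Foxm1, for genes called in any fit, and for the 2 largest and the smallest changes of each role group; Ube2c, Aurka, Hmgb2 and Dntt were named after their values were seen. The genes of the module and all lists were chosen with earlier results of these data known. Promoters are the 250 bases before RefSeq starts (GRCm38.p6). The alternatives were other normalizations, floors, filters and probe set rules, averaging the 2 cultured arrays of experiment 2, and leaving out each array.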

Additional observations from a re-analysis of the deposited data

How the results depend on the processing

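In culture, 0 genes of the module were called higher under every alternative. The count called lower was 0 without a term for the experiment under every alternative, and with the replicate block it was 1 (Mcm5), 4 after quantile normalization (Mcm5, Nusap1, Top2a and Mki67) and 3 with arrays centred on the median (Mcm5, Nusap1 and Mki67). Combinations of the block with another normalization, floor, probe set rule or left-out array were chosen after seeing the data. Among the genes of the module, the block changed no other call; outside it, calls of Hmgb2, Dntt and 8 stromal markers were made only with the block. Mcm5 was not called with the block (limma) when the 2 cultured arrays of experiment 2 were averaged (adjusted p = 0.0787), without cultured replicate 2 or 3, the arrays of experiment 2 (0.0564 and 0.105), with intensities under 50 set to 50 (0.0503) or with the mean of its probe sets (0.0608); the cause was not tested, and the first 2 settings have fewer arrays. Median changes ranged between -0.40 and -0.21 for replication genes and between -0.45 and -0.16 for mitosis genes, with both ends of the mitosis range from leaving out an ex vivo array. Cultured means were lower for 34 of 45 genes without ex vivo replicate 1 and 37 without cultured replicate 1, both of experiment 1. Between the experiments, the 7 genes called higher in experiment 2 became 3 when the 2 cultured arrays were averaged, 4 with no filter and 3 with the mean of probe sets, and 0 to 6 when an array was left out. The 6 called lower became 3 when averaged, 2 after quantile normalization, 3 with no filter, 3 with the mean of probe sets and 0 to 3 when an array was left out. The interaction called 0 after quantile normalization, with no filter and with an intensity trend in eBayes, the alternatives run for it. Low signal limits Cdc6, Pola1, Bub1 and Kif11.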
